A study of Mus musculus with 8 samples.

Results

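*Hic1*-high cells are described here, that is, cells of the sorted forelimb libraries of E14.5 and E16.5 (the latter divided into a proximal and a distal one) in which 3 or more unique molecular identifiers (UMIs, each marking 1 captured transcript) of *Hic1* were counted. There were 1088 such cells among the 27937 cells of these 3 libraries that had at least 3000 UMIs and at most 10% mitochondrial UMIs, and the 8 libraries of the series held 53085 cells after the same filter. By library there were 249 *Hic1*-high cells of 8381 at E14.5, 440 of 11109 in the E16.5 proximal library and 399 of 8447 in the E16.5 distal library. They were compared with cells of the same library in which no *Hic1* UMI was counted (5875, 7806 and 5705 cells), matched 1 to 1 on total UMIs. The embryos of all 3 libraries were labelled C57BL/6J and homozygous both for a CreERT2 allele at *Hic1* and for a Rosa26 LSL tdTomato reporter, and their dams were gavaged with 7.5 mg tamoxifen at embryonic day 10. The E14.5 library was made from whole forelimbs, the proximal E16.5 library from the region around the elbow, with the adjoining ends of the upper arm and forearm, and the distal E16.5 library from the far end of the forearm and the hand. Limbs of several embryos were pooled, cells carrying blood or endothelial surface markers were gated out, and tdTomato+ cells were sorted. All cells compared, with or without *Hic1* UMIs, were thus sorted as descendants of cells that expressed *Hic1* around the time of tamoxifen. The paper treated *Krt1*+ or *Krt14*+ cells of its E16.5 data as epithelial contaminants and removed them. Such cells were kept here, and 8, 111 and 16 of the cells matched on total UMIs were epithelial (E14.5, proximal and distal E16.5). Each stage and segment was 1 library. How the CreERT2 allele alters the *Hic1* transcript is not given in the sources used here.

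*Hic1* encodes a zinc finger and BTB domain transcriptional repressor that works with corepressors such as CtBP and the NuRD complex. In adult tissues it marks mesenchymal progenitors that are largely out of the cell cycle, and in the limb it is expressed in loose connective tissue, in the cells around nerves and in pericytes. Transcripts of a repressor are scarce, so at this depth a count of 0 does not show that a cell lacked *Hic1*, and the cells without a *Hic1* UMI are a mixture of cells that did and did not express it. *Hic1* chose the cells, and its own values are therefore a description. Apart from CreERT2, which is inserted at *Hic1*, all other genes were free to differ.

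The *Hic1*-high cells were deeper than their libraries, with medians of 20932 UMIs at E14.5, 26461.5 in the proximal and 22688 in the distal E16.5 library against library medians of 14333, 18473 and 17275. The cells matched on total UMIs had medians of 20933, 26461.5 and 22686 UMIs, and those matched on total UMIs and cluster 20754, 25833.5 and 21126. *Hic1*-high cells had a median of 3.05%, 2.60% and 2.43% mitochondrial UMIs in the 3 libraries, the cells matched on total UMIs 2.88%, 2.03% and 2.14%, and those matched on cluster too 3.05%, 2.08% and 2.23%. They also had more genes detected (medians of 4726, 5058.5 and 4790 against 4615, 4737 and 4701, and 4637, 4946 and 4516 with cluster matched), and the part of either difference in the results was not tested. Any 2 of the 3 libraries shared between 18 and 30 cell barcodes. Of 7 immune markers *Ptprc*, *C1qa*, *C1qb* and *Tyrobp* had no UMI in any *Hic1*-high cell, and *Cd68*, the 1 with enough counts to be tested, was at 4.47, 2.09 and 2.54 CPM. The 7 summed to between 3.25 and 5.01 CPM in *Hic1*-high cells, to between 3.33 and 14.9 in cells matched on total UMIs and to between 2.83 and 54.4 in cells matched on cluster too. In the 3 libraries 8 endothelial markers summed to 13.8, 24.5 and 24.8 CPM in *Hic1*-high cells. They summed to 50.7, 14.7 and 28.3 CPM in cells matched on total UMIs and to 67.6, 34.8 and 20.8 with cluster matched. Of 6 tested within clusters 0 were called (edgeR, unadjusted p under 0.05 in 5). All intervals in the text are exact at 95% and reflect counting error alone.

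The share of *Hic1*-high cells was 2.97% (2.62 to 3.36) at E14.5, 3.96% (3.61 to 4.34) in the proximal and 4.72% (4.28 to 5.20) in the distal E16.5 library. In the same order they held 24.6%, 31.2% and 33.3% of all *Hic1* UMIs of their library. The number of *Hic1* UMIs fell off step by step, with 519 cells at 2, 149 at 3 and 100 at 4 or more at E14.5, 698, 267 and 173 in the proximal library, and 618, 250 and 149 in the distal library. The largest number in a cell was 10, 10 and 13. Cells just inside the limit, with 3 *Hic1* UMIs, had medians of 19884, 25259 and 22344.5 UMIs in all, and cells just outside it, with 2, had medians of 16796, 22715 and 19994.5.

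These shares depend on depth, which differed between the libraries. The level of *Hic1* over all cells was 27.5 CPM (counts scaled to a common library total) at E14.5, 22.03 in the proximal and 27.9 in the distal E16.5 library, so the proximal library had the lowest level but not the lowest share of *Hic1*-high cells. When every cell was thinned to 3000 UMIs, 0.0716%, 0.0450% and 0.0592% of cells still had 3 *Hic1* UMIs. The share of thinned cells with any *Hic1* UMI was 8.13%, 6.15% and 7.60% (29.9%, 29.7% and 32.5% unthinned). Epithelial cells, which are not expected to express *Hic1*, gave the background, and 1.45%, 0.427% and 0% of them had a *Hic1* UMI after thinning (median depths of 22135, 37708 and 29687.5 UMIs). Their *Hic1* level was 5.69 (2.60 to 10.8), 2.06 (1.62 to 2.59) and 0.409 CPM, and 0 of 69, 7 of 937 and 0 of 68 epithelial cells were *Hic1*-high. The 937 proximal cells include 318 of a keratin-led cluster that the marker rule left unnamed.

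**Figure D1:**
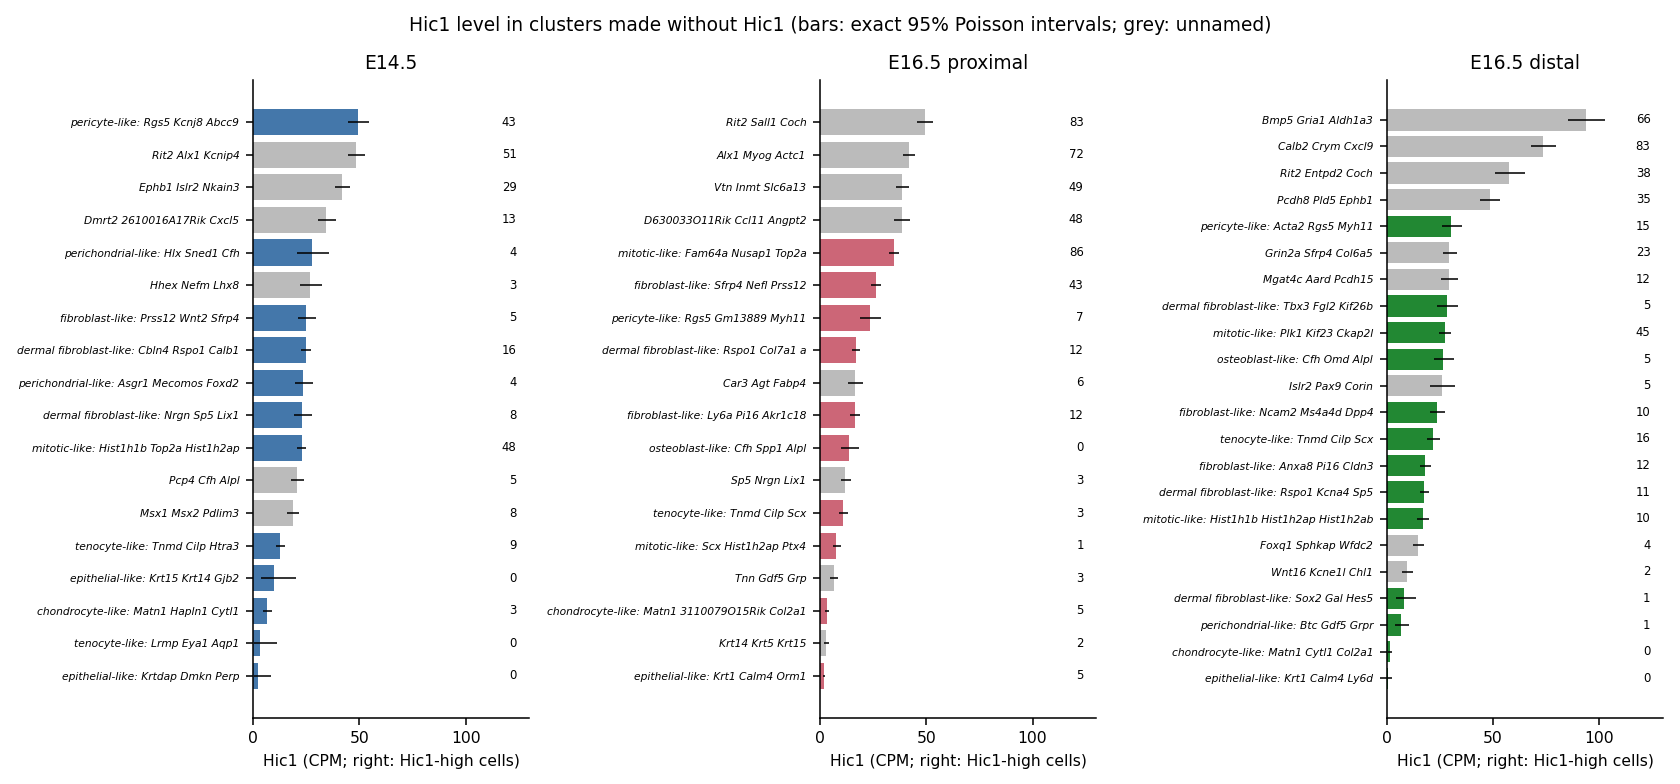
*Hic1* level (CPM, horizontal axis) in each cluster of the 3 libraries, with exact 95% Poisson intervals, the leading genes of the cluster at the left and its number of *Hic1*-high cells at the right. Grey bars are clusters that received no cell type name. The highest bars are the distal E16.5 cluster led by *Bmp5*, *Gria1* and *Aldh1a3* (93.5 CPM) and the distal cluster led by *Calb2*, *Crym* and *Cxcl9* (73.7 CPM), and chondrocyte-like and epithelial-like clusters are among the shortest bars.

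Each library was clustered on its own without *Hic1* and the transgenes, which gave 58 clusters, of which 35 were named after cell type markers ("-like"). *Hic1*-high cells were found in most clusters but in very unequal shares. The highest level of *Hic1* was 93.5 CPM (85.1 to 103) in a distal E16.5 cluster led by *Bmp5*, *Gria1*, *Aldh1a3* and *Cdh4*, where 66 of 294 cells (22.4%) were *Hic1*-high. That cluster held 16.5% of the *Hic1*-high cells of the library but 0.501% of the matched cells. In a second distal cluster, led by *Calb2*, *Crym* and *Cxcl9*, *Hic1* was at 73.7 CPM (67.9 to 79.7) and 83 of 423 cells (19.6%) were *Hic1*-high.

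One cluster in each library was led by *Rit2*, and *Hic1* was high in all 3 of these clusters. *Hic1* was at 48.7 CPM in the E14.5 cluster (also led by *Alx1*, *Kcnip4* and *Ngfr*, 51 of 615 cells *Hic1*-high), at 49.2 CPM in the proximal cluster (*Sall1*, *Coch* and *Moxd1*, 83 of 800) and at 57.6 CPM in the distal cluster (*Entpd2* and *Coch*, 38 of 189). The E14.5 pericyte-like cluster, led by the pericyte genes *Rgs5*, *Kcnj8* and *Abcc9*, was at 49.5 CPM (44.8 to 54.5) and held 17.3% of the *Hic1*-high cells (12.8 to 22.5) against 4.02% of the matched cells (1.94 to 7.26). The intervals of *Hic1* in the pericyte-like and the *Rit2*-led cluster of E14.5 overlap. The pericyte-like cluster of E14.5 held 518 cells. A finer clustering (Leiden resolution 2) gave a pericyte-like cluster of 139 cells and, apart from it, an unnamed cluster of 306 cells led by *Crtac1*, *Grm3*, *Aldh1a3* and *Ccl11*. How the 43 *Hic1*-high cells of the 518 divide between these finer clusters is not given here. At E16.5 the pericyte-like clusters were at 23.5 CPM (proximal) and 30.4 CPM (distal) and held 1.59% and 3.76% of the *Hic1*-high cells.

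At the other end, chondrocyte-like clusters had *Hic1* levels of 6.63 CPM at E14.5 and 3.27 and 1.44 CPM in the proximal and distal E16.5 libraries and held 3, 5 and 0 *Hic1*-high cells. Tenocyte-like cells were at 12.2, 11.1 and 21.8 CPM. By class, clusters without a cell type name held 43.8%, 60.5% and 67.2% of the *Hic1*-high cells and 30.5%, 31.8% and 26.3% of the matched cells. The unnamed clusters include a proximal one led by *Krt14* and *Krt5*, with 2 *Hic1*-high cells and 30 matched cells, that is counted with the epithelial cells wherever a background or their removal is described. Dermal fibroblast-like clusters were the reverse, with 9.64%, 2.73% and 4.26% of the *Hic1*-high cells against 19.3%, 7.73% and 12.3% of the matched cells, and tenocyte-like clusters held 3.61%, 0.682% and 4.01% against 10.0%, 3.18% and 7.77%. A proximal cluster led by *Sp5*, *Nrgn*, *Lix1* and the dermal markers *Irx1* and *Col7a1* is counted as unnamed, with 3 *Hic1*-high and 24 matched cells. Mitotic-like clusters had no common direction, with 19.3% against 20.5% at E14.5, 19.8% against 13.2% in the proximal and 13.8% against 23.8% in the distal library. These shares are counts of cells of single libraries, so no test was made.

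**Figure D2:**
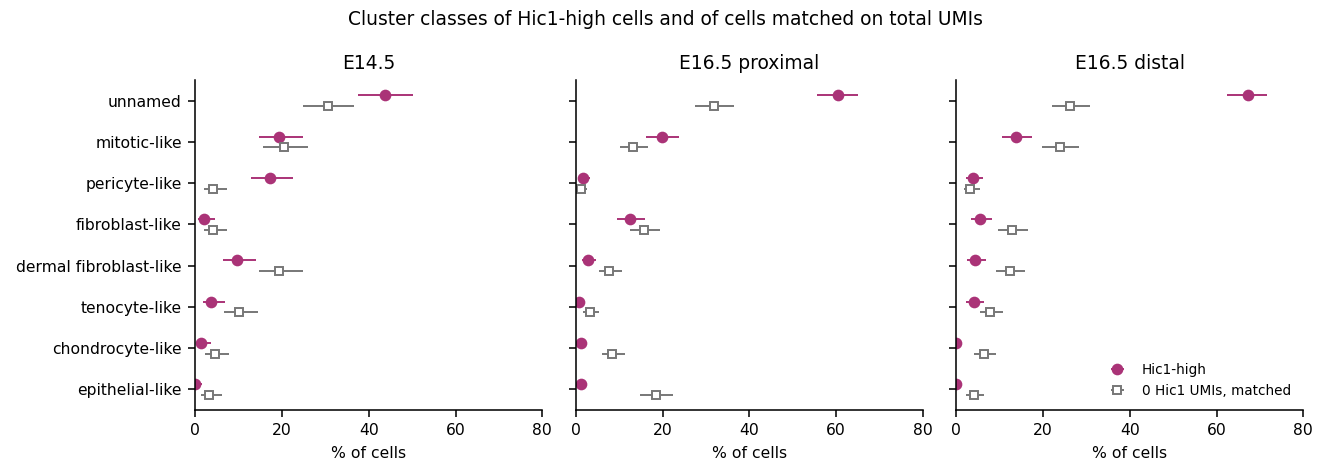
Share of *Hic1*-high cells (filled circles) and of cells without a *Hic1* UMI matched on total UMIs (open squares) that fall in each cluster class, in % of cells with exact 95% binomial intervals, for the 3 libraries. In each library the unnamed clusters hold a larger share of the *Hic1*-high cells, and dermal fibroblast-like, tenocyte-like and chondrocyte-like clusters hold a smaller share.

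The transgenes were examined first among the other transcripts. CreERT2, which is inserted at *Hic1*, had 9 UMIs in *Hic1*-high cells and 3 in matched cells at E14.5, 22 and 1 in the proximal and 44 and 10 in the distal E16.5 library, which is higher in 3 of 3 libraries (log2 fold change 2.35, SE 0.49, adjusted p = 0.039, edgeR quasi-likelihood test). The call was lost with DESeq2 (adjusted p = 0.064) and without the top 5% of doublet scores (adjusted p = 0.085). CreERT2 is transcribed from the same locus, so it is no independent gene, and within clusters it did not pass (1.22, SE 0.35, adjusted p = 0.083). tdTomato, the lineage reporter that stays on once recombined, was at 434, 1231 and 714 CPM in *Hic1*-high cells and at 398, 1194 and 831 CPM in matched cells, higher in 2 libraries and lower in the third, and did not pass the test (log2 fold change -0.11, SE 0.11, adjusted p = 0.61).

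UMIs were summed over *Hic1*-high cells and over matched cells of each library, and the 3 pairs of sums were tested with library as a block. Library pairs differ in stage and segment, so the p-values measure the spread of the difference between these 3 libraries. The E16.5 libraries came from forelimbs cut into 2 segments and may share embryos, so they may not be independent. Of 13082 genes tested, 666 (5.09%) passed an adjusted p of 0.05, 208 (1.59%) of them higher and 458 (3.5%) lower in *Hic1*-high cells. This comparison mixes cell types, because only 9.24%, 6.82% and 6.27% of the pairs in the 3 libraries lay in the same cluster. A second comparison therefore matched each *Hic1*-high cell to a cell without a *Hic1* UMI of the same cluster and like total. There 318 of 12960 genes (2.45%) passed, 104 (0.802%) higher and 214 (1.65%) lower.

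The 10 named genes furthest below their matched cells in the first comparison were *Krt5*, *Krt14*, *Krt15*, *Krt17*, *Krt1*, *Perp*, *Ly6d*, *BC100530*, *Stfa3* and *Stfa1*, all genes of the epidermis. *Krt5*, a keratin of basal keratinocytes, was at 0, 14.8 and 1.32 CPM in *Hic1*-high cells and at 55.0, 312 and 208 CPM in matched cells. The 8 epithelial markers summed to between 47.9 and 760 CPM in *Hic1*-high cells and to between 329 and 11466 CPM in matched cells. Of these markers 6 of 8 were lower, against 3.5% of all genes. In all, 8, 111 and 16 of the matched cells of the 3 libraries were epithelial. With the epithelial clusters left out before matching, *Krt5* had a log2 fold change of -0.80 (adjusted p = 0.22) in place of -5.70 and *Krt14* of -0.40 (adjusted p = 0.52) in place of -5.66, and 1292 of 12955 genes (9.97%) passed instead of 666, 499 (3.85%) higher and 793 (6.12%) lower. All 10 named higher genes passed in both forms.

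**Figure D3:**
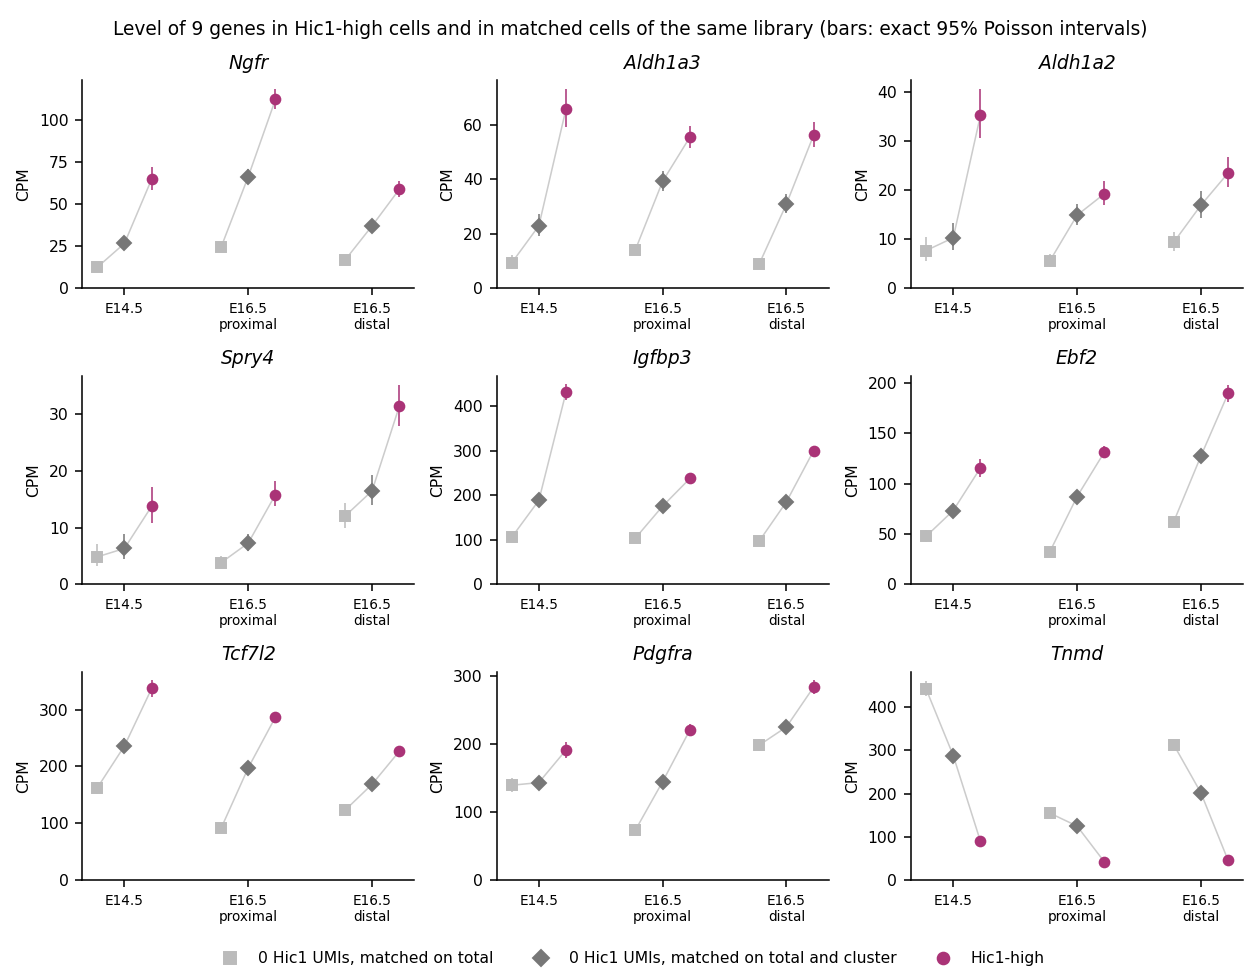
Level (CPM, vertical axis) of 9 genes in *Hic1*-high cells (circles), in cells without a *Hic1* UMI matched on total UMIs (squares) and in such cells matched on total UMIs and cluster (diamonds), in each of the 3 libraries, with exact 95% Poisson intervals. For *Ngfr*, *Aldh1a3*, *Aldh1a2*, *Spry4*, *Igfbp3*, *Ebf2*, *Tcf7l2* and *Pdgfra* the circle is highest in all 3 libraries, and for *Tnmd* it is lowest.

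The genes with the largest excess in *Hic1*-high cells over cells matched on total UMIs were *Aldh1a3*, *Ngfr*, *Gpr83*, *Coch*, *Amot*, *Gm26778*, *Cdh4*, *Aldh1a2*, *Ebf2* and *Spry4*. *Ngfr* (chromosome 11, 95568818 to 95587735 on the minus strand, GRCm38), the low-affinity neurotrophin receptor, was at 65.0 CPM against 12.5 at E14.5, 112 against 24.3 in the proximal and 58.9 against 16.7 in the distal E16.5 library. All 3 *Hic1*-high sums were above all 3 matched sums (log2 fold change 2.02, SE 0.15, adjusted p = 0.00076). Against cells of the same cluster the levels were 26.7, 66.4 and 37.1 CPM in cells without a *Hic1* UMI, so that the excess was smaller but still passed (log2 fold change 0.81, SE 0.11, adjusted p = 0.00077). *Ngfr* was higher in the *Hic1*-high cells of 15 of the 16 clusters that held at least 20 pairs.

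*Igfbp3*, which encodes a binding protein for insulin-like growth factors, was the most abundant of the named higher genes. Within clusters it was at 432 CPM against 188 at E14.5, 238 against 176 in the proximal and 300 against 185 in the distal library (log2 fold change 0.72, SE 0.11, adjusted p = 0.0015), with no overlap between the groups. The remaining named higher genes of the cluster-matched comparison were *Spry4*, *Aldh1a3*, *Amot*, a scaffold of the Hippo pathway, *Gpr83*, a G protein-coupled receptor, *Shisa2*, a modulator of Wnt and FGF receptors, *Cdh4*, the cell adhesion molecule R-cadherin, *Nav1*, a neuron navigator protein, and the non-coding *Gm26669*, with log2 fold changes between 0.62 and 0.99. *Amot* was at 78.0, 65.4 and 170 CPM in *Hic1*-high cells and at 45.7, 44.3 and 80.9 CPM in cells of the same cluster (0.76, adjusted p = 0.00061). Of the genes named from the first comparison, *Coch* and *Aldh1a2* did not pass within clusters. *Coch* is the gene of cochlin. At 31.9 and 48.3 CPM in the E16.5 libraries it stood above the 8.68 and 13.7 CPM of cells matched on total UMIs, but cells of the same cluster had 24.3 and 47.8 CPM so that the difference was near 0 (0.06, SE 0.14, adjusted p = 0.89).

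HIC1 binds a DNA element with the core GGGCACC, which was searched on both strands in the window from 250 bases before to 50 bases after each RefSeq transcription start (GRCm38.p6). It is in 1503 of 32851 promoters of 27025 genes (4.58%). Of the 10 named higher genes of the cluster-matched comparison 6 had a promoter in the table, and 2 of these, *Igfbp3* and *Ngfr*, held it. None of 9 promoters of the 8 matched lower genes and neither of the *Hic1* promoters held it. Both stretches are shown with the core, which reads GGTGCCC on the gene's own strand, in capitals. The *Igfbp3* stretch is chr11:7214075-7214104, 170 bases upstream of the start, and the *Ngfr* stretch chr11:95587903-95587932, 223 bases upstream, both on the minus strand.
Igfbp3: cacagagagcaGGTGCCCggtgaagacgcg
Ngfr: gcataaccggaGGTGCCCtgggtacgtggg
A letter match of this length is a description of the sequence, and binding was not measured here.

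Retinoic acid is made from retinol by retinol dehydrogenases such as RDH10 and then by the retinaldehyde dehydrogenases ALDH1A1, ALDH1A2 and ALDH1A3, is carried in the cell by CRABP1 and CRABP2, acts through RAR and RXR receptors, and is broken down by CYP26 enzymes. Of 17 genes of this pathway tested, 3 were higher and 1 lower in *Hic1*-high cells than in cells matched on total UMIs, where 1.59% of all genes were higher and 3.5% lower (median log2 fold change 0.21, against 0.00 over all genes tested). *Aldh1a3* (chromosome 7, 66390890 to 66427517 on the minus strand) was at 65.9 against 9.31 CPM at E14.5, 55.4 against 14.2 in the proximal and 56.2 against 8.95 in the distal library (log2 fold change 2.35, SE 0.22, adjusted p = 0.0016). *Aldh1a2* (chromosome 9, 71215789 to 71296243 on the plus strand) was at 35.3 against 7.70, 19.2 against 5.58 and 23.5 against 9.36 CPM (1.65, SE 0.20, adjusted p = 0.0044). For both synthesising enzymes each *Hic1*-high sum was above all 3 matched sums.

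The 2 carriers differed in opposite directions, although both calls were lost without the distal E16.5 library (adjusted p = 0.16 for *Crabp1* and 0.12 for *Crabp2*) and at 4 or more *Hic1* UMIs. *Crabp2* was at 349, 127 and 214 CPM against 233, 72.1 and 135 (log2 fold change 0.60, SE 0.10, adjusted p = 0.019), while *Crabp1* was at 530, 250 and 417 CPM against 716, 328 and 616 (-0.55, SE 0.10, adjusted p = 0.025). In neither did all sums of one group clear those of the other, but each pair of a library had the same direction. *Rdh10* had 58.0, 55.3 and 45.6 CPM against 42.1, 22.3 and 29.8 (0.71, adjusted p = 0.0505), and *Aldh1a1* was near 0 at E14.5 and had at most 5.66 CPM in any sum of either comparison. With epithelial clusters left out, where 3.85% of all genes were higher and 6.12% lower, 5 genes of the pathway were higher (*Aldh1a2*, *Aldh1a3*, *Rdh10*, *Rbp4*, *Crabp2*) and 3 lower (*Crabp1*, *Rarg*, which encodes the retinoic acid receptor gamma, and *Cyp26b1*, which encodes a degrading enzyme).

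Within clusters, where 0.802% of all genes were higher, *Aldh1a3* alone of the 17 genes passed. Cells of the same cluster without a *Hic1* UMI had 22.9, 39.2 and 30.9 CPM of *Aldh1a3* (log2 fold change 0.84, SE 0.14, adjusted p = 0.0028), and *Hic1*-high cells were higher in 15 of 16 clusters. The gap was wide in the E14.5 pericyte-like cluster (153 against 65.8 CPM) and in the distal cluster led by *Bmp5* (181 against 120 CPM), and small in the proximal cluster led by *Vtn* and *Inmt* (41.0 against 40.2 CPM). Finer clustering of E14.5 set an *Aldh1a3*-led cluster apart from pericyte-like cells, and its part in the first gap was not tested. The exception was the proximal fibroblast-like cluster led by *Sfrp4*, with 5.4 against 9.9 CPM. *Aldh1a2* had 10.3, 14.9 and 16.9 CPM in cells of the same cluster (0.72, SE 0.19, adjusted p = 0.056), higher in *Hic1*-high cells in 12 of 16 clusters. At E14.5 the 5 cells with most *Aldh1a2* UMIs held 47.2% of the 197 UMIs of the *Hic1*-high cells. *Crabp1*, *Crabp2* and *Rdh10* had adjusted p between 0.070 and 0.55 there.

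**Figure D4:**
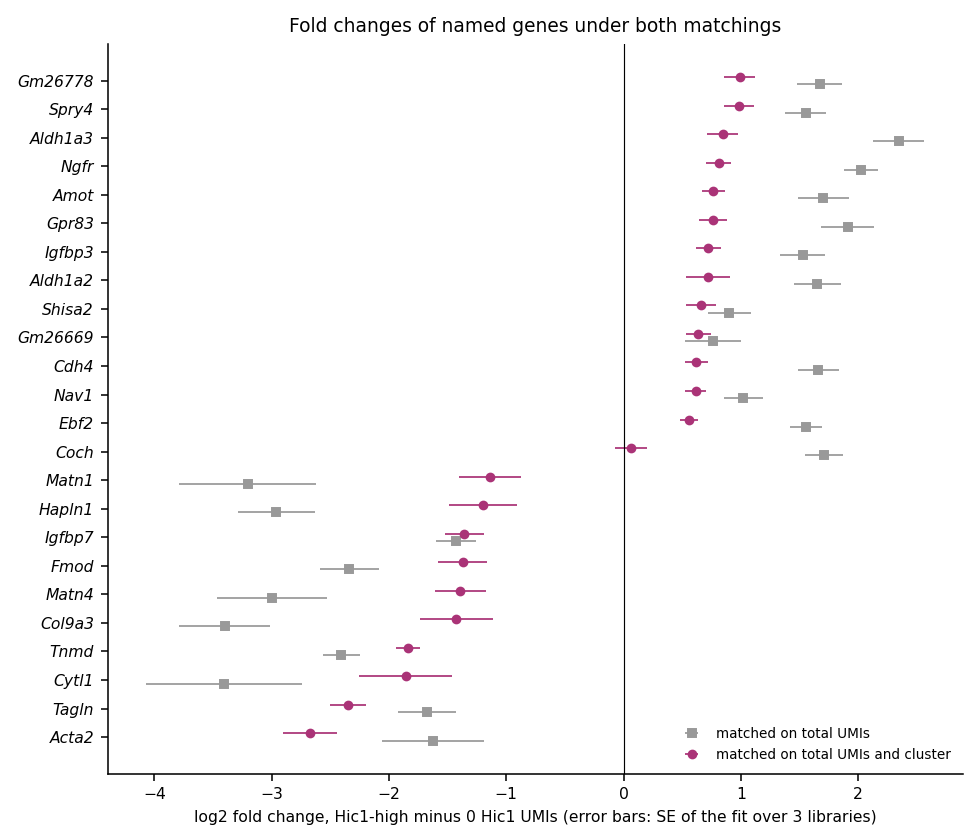
Log2 fold change (horizontal axis, error bars SE of the fit over 3 libraries) of 24 named genes in *Hic1*-high cells against cells without a *Hic1* UMI, matched on total UMIs (grey squares) and on total UMIs and cluster (circles). The 14 genes above 0 move toward 0 when the cluster is matched, with *Coch* at 0.06, while *Acta2* and *Tagln* move further below 0.

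*Spry4* belongs to the genes that FGF signalling switches on and that limit it in turn. The list was drawn up after *Spry4* had been seen to be the highest named gene of the cluster-matched comparison, and its count is a description. *Spry4* was at 13.8 CPM against 6.32 at E14.5, 15.8 against 7.28 in the proximal and 31.4 against 16.5 in the distal library within clusters (log2 fold change 0.99, SE 0.13, adjusted p = 0.00074), so each library showed the difference although the groups overlapped across libraries. Its relatives *Spry1* (0.51, adjusted p = 0.0082) and *Spred1* (0.48, adjusted p = 0.012) and the FGF-responsive transcription factor gene *Etv5* (0.50, adjusted p = 0.0498) were higher too, although *Etv5* lost its call in 8 of 16 alternatives, among them the fits without either E16.5 library (adjusted p = 0.25 and 0.13), and *Spred1* without the proximal one (adjusted p = 0.068). The other members, *Spry2*, *Spred2*, *Etv4*, *Dusp6* and *Il17rd*, had log2 fold changes between 0.33 and 0.50 and did not pass. Thus 4 of 9 genes were higher and 0 lower, against 0.802% and 1.65% of all genes, with a median of 0.48. When only total UMIs were matched, 2 of 9 were higher, against 1.59% of all genes, with a median of 0.69. *Dusp6* was then at -0.43 and did not pass.

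Among transcription factor genes of progenitors and connective tissue, *Ebf2*, *Ebf3*, *Tcf7l2* and *Osr1* were higher within clusters. *Ebf2*, one of the early B cell factors that are expressed in loose connective tissue and fat progenitors, was at 116, 131 and 190 CPM against 73.4, 87.1 and 127 within clusters (log2 fold change 0.56, SE 0.07, adjusted p = 0.00086), higher in 16 of 16 clusters. *Ebf3* was also higher (0.53, adjusted p = 0.0028; 0.46, adjusted p = 0.072 without the distal E16.5 library). *Ebf1* was higher only against cells matched on total UMIs (0.65, adjusted p = 0.017; within clusters 0.11, adjusted p = 0.43), and *Ebf4* was at 5.55 CPM or less. The difference between the 4 genes was not tested, and this list too was chosen after the values of *Ebf2* were seen. *Tcf7l2*, a Wnt effector that marks muscle connective tissue fibroblasts, was at 337, 287 and 227 CPM against 236, 198 and 169 (0.45, SE 0.07, adjusted p = 0.0017), higher in 16 of 16 clusters. *Osr1*, a marker of embryonic fibroblast progenitors, was at 136, 61.3 and 34.0 CPM against 95.9, 48.2 and 24.9 (0.39, SE 0.09, adjusted p = 0.024) but lost its call in 7 of 16 alternative settings. Of the 8 early progenitor genes *Tcf7l2* and *Osr1* were higher, against 0.802% of all genes, and *Hmga2*, *Id1*, *Id2*, *Id3*, *Snai1* and *Sox11* did not pass.

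*Pdgfra*, the receptor by which mesenchymal progenitors are often sorted, and its ligand genes differed in opposite directions. Within clusters *Pdgfra* was at 191 CPM against 143 at E14.5, 221 against 145 in the proximal and 284 against 225 in the distal library (log2 fold change 0.41, SE 0.07, adjusted p = 0.0066), and it was higher in all 16 clusters. *Pdgfa* was at 23.1, 11.7 and 23.9 CPM against 33.2, 23.5 and 43.1 (-0.86, SE 0.11, adjusted p = 0.00088) and *Pdgfc* at 9.48, 1.70 and 5.69 against 16.6, 4.05 and 14.2 (-1.16, SE 0.18, adjusted p = 0.0019). *Pdgfrb* did not pass (0.02, adjusted p = 0.96). Of 5 receptor and ligand genes tested 1 was thus higher and 2 were lower, against 0.802% and 1.65% of all genes.

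The secreted modulators *Wif1*, *Sfrp2* and *Nog* were lower in *Hic1*-high cells. *Wif1*, a secreted Wnt inhibitor, was at 41.2 CPM against 74.8, 12.5 against 26.7 and 19.5 against 37.4 within clusters (log2 fold change -1.003, SE 0.10, adjusted p = 6.5e-05), and *Sfrp2*, another, was at 176, 74.5 and 40.8 against 224, 93.3 and 97.0 (-0.66, adjusted p = 0.013), a call that was lost without the distal E16.5 library (-0.37, adjusted p = 0.15) and with DESeq2. These were 2 of 14 Wnt modulators, against 1.65% of all genes lower within clusters. *Nog*, the gene of the BMP antagonist noggin, was at 5.19, 3.48 and 2.64 CPM against 15.7, 7.12 and 5.67 (-1.28, SE 0.19, adjusted p = 0.0017). Against cells matched on total UMIs, where 3.5% of all genes were lower, 5 of the 14 Wnt modulators were lower (*Wif1*, *Dkk1*, *Rspo1*, *Axin2* and *Lef1*). Of these *Rspo1*, *Axin2* and *Lef1* also mark dermal fibroblasts. In that comparison 6 of 9 dermal fibroblast markers were lower (these 3, *Col7a1*, *Irx1* and *Twist2*). Within clusters 0 of 9 were (edgeR, unadjusted p under 0.05 in 2, and 0 with DESeq2 and limma-voom). With cells of at least 2 *Hic1* UMIs in place of 3, *Wif1* passed but *Dkk1* and all 6 dermal markers did not, and with a second set of matched cells *Lef1* was the 1 dermal marker of the 6 that passed. *Dkk1* (-1.19, adjusted p = 0.22) and *Axin2* (-0.64, adjusted p = 0.20) also did not pass without the distal E16.5 library.

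Several genes of tendon, cartilage and contractile cells were lower in *Hic1*-high cells, with differing support. *Tnmd* (chromosome X, 133850980 to 133865577 on the plus strand), which encodes the tendon protein tenomodulin, was at 89.5 CPM against 288 at E14.5, 42.4 against 125 in the proximal and 45.7 against 202 in the distal library even within clusters (log2 fold change -1.84, SE 0.10, adjusted p = 6.9e-08). All 3 *Hic1*-high sums were below all 3 matched sums, and *Hic1*-high cells were lower in 15 of 16 clusters. At E14.5, however, 1126 of the 1593 *Tnmd* UMIs of the matched cells came from the mitotic-like cluster, where the level was 776 CPM against 87.5. Of 7 tenocyte markers 6 were lower within clusters (*Tnmd*, *Scx*, *Htra3*, *Mkx*, *Kera* and *Fmod*, median -0.68), against 1.65% of all genes, and DESeq2 called 4. Without the mitotic-like clusters, where 0.776% of all genes were lower, *Tnmd* and *Fmod* alone passed. The 7 summed to between 254 and 477 CPM in *Hic1*-high cells and to between 392 and 870 CPM in cells of the same cluster.

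*Acta2*, the smooth muscle actin gene, had the largest deficit within clusters, at 21.3 CPM against 177, 52.2 against 172 and 9.05 against 118 (log2 fold change -2.67, SE 0.23, adjusted p = 1.7e-05). A few cells carried it. In the matched cells the 5 cells with most *Acta2* UMIs held 95.3% of them at E14.5, 61.8% in the proximal and 85.1% in the distal library, and 944 of the 980 UMIs at E14.5 lay in the pericyte-like cluster. *Tagln*, a second smooth muscle gene, was at 14.7, 15.1 and 11.3 CPM against 78.4, 50.3 and 82.1 (-2.35, adjusted p = 5.5e-07), with 73.7%, 58.0% and 62.2% of the matched UMIs in 5 cells. Among 6 pericyte markers tested *Acta2* and *Rgs5* were lower within clusters, against 1.65% of all genes. *Rgs5* (-0.9998, adjusted p = 0.0024) lost its call in 3 of 16 alternatives and turned direction with finer clusters (0.097), and *Abcc9* and *Kcnj8*, both potassium channel subunit genes of pericytes, had log2 fold changes of 0.55 (adjusted p = 0.065) and 0.01 (adjusted p = 0.99).

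Cartilage genes made up most of the other named lower genes. *Matn4*, *Matn1*, *Col9a3*, *Hapln1* and *Cytl1*, genes of cartilage matrix and of a cartilage cytokine, had log2 fold changes between -1.14 and -1.86 within clusters. By library their log2 differences lay between -1.19 and -2.28 at E14.5 and between -2.14 and -3.80 in the distal library. In the proximal library they were small, between -0.05 (*Col9a3*, 153 against 159 CPM) and -0.38 (*Cytl1*). Their matched UMIs were also concentrated, with 95.6%, 85.4% and 100% of the *Matn1* UMIs of the 3 libraries in 5 matched cells, and *Matn1* was lower in 4 and higher in 10 of the 16 clusters. Against cells matched on total UMIs all 7 chondrocyte markers were lower (median -2.96), against 3.5% of all genes. Within clusters the 7 summed to 261 against 793 CPM at E14.5, 915 against 884 in the proximal and 70.4 against 325 in the distal library. There 3 of 7 were lower (*Matn1*, *Col9a1* and *Col9a3*, median -1.14), against 1.65% of all genes. None of these 3 passed with DESeq2 or without the mitotic-like clusters. *Sox9*, the master regulator of cartilage, was at 63.7, 56.1 and 34.5 CPM against 132, 150 and 99.0 in cells matched on total UMIs (-1.42, adjusted p = 0.0021). It did not pass within clusters (-0.51, adjusted p = 0.054).

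The mitotic-like clusters mix dividing cells of several types, so the cluster-matched comparison was also run without them, an alternative added after the values were seen. It called 147 of 12506 genes (1.18%), 50 (0.4%) higher and 97 (0.776%) lower. All 10 named higher genes passed, among them *Spry4* (0.80), *Ngfr* (0.71) and *Aldh1a3* (0.60). Of the 10 named lower genes 6 passed (*Acta2*, *Tagln*, *Tnmd*, *Matn4*, *Fmod* and *Igfbp7*), and *Cytl1*, *Col9a3*, *Hapln1* and *Matn1* did not. *Tcf7l2*, *Pdgfra*, *Pdgfa*, *Wif1*, *Ebf2* and *Ebf3* also passed without these clusters, whereas *Osr1*, *Pdgfc*, *Nog*, *Etv5*, *Cdkn1a*, *Scx*, *Htra3*, *Mkx*, *Kera* and the 4 collagen genes *Col1a1*, *Col1a2*, *Col6a1* and *Col6a3* did not. A lost call does not by itself show a smaller difference, and the lost calls were of both kinds. *Etv5* went from 0.50 to 0.49 and *Osr1* from 0.39 to 0.35, whereas *Col1a2* went from -0.28 to -0.15. The named lower genes that lost their call all moved toward 0. *Cytl1* went from -1.86 to -0.09, *Hapln1* from -1.20 to -0.27, *Col9a3* from -1.43 to -0.35 and *Matn1* from -1.14 to -0.59.

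Genes of the universal fibroblasts, the *Pi16*+ and *Col15a1*+ cells from which other fibroblasts are thought to derive, had 7 of 15 lower within clusters (*Pi16*, *Dpt*, *Ly6a*, *Cd34*, *Col14a1*, *Sema3c* and *Cd55*), against 1.65% of all genes, and *Pdgfra* higher, with a median of -0.35. DESeq2 called 4 of the 15 in place of 8. By cluster, *Ly6a* was lower in 7 and higher in 6 of 16, and *Pi16* lower in 8 and higher in 6. *Cd34* was lower in 10 and higher in 6, *Col14a1* lower in 12 and higher in 4, and *Dpt* lower in 13 and higher in 3. Without the distal E16.5 library *Pi16*, *Dpt*, *Cd34*, *Col14a1* and *Sema3c* did not pass (adjusted p between 0.055 and 0.46). These 5 of the 7 calls thus needed that library, and whether the differences were smaller without it was not tested. *Cd34* and *Col14a1* lost the call in 9 and 8 of 16 alternatives. *Ly6a*, the gene of the Sca1 antigen, was at 0, 34.8 and 17.7 CPM against 0.181, 54.0 and 25.2 (log2 fold change -0.64, adjusted p = 0.0095), and did not pass without the proximal E16.5 library (-0.57, adjusted p = 0.19) or with DESeq2. *Pi16* was at 9.89 against 17.6 CPM in the proximal and 15.6 against 27.4 in the distal library, but at 1.43 against 0.361 CPM at E14.5. Without the mitotic-like clusters *Pdgfra* was the 1 gene of the 15 that passed, and their median was -0.13. The 7 lower genes then had log2 fold changes between -0.08 (*Ly6a*) and -0.33 (*Cd55*). *Ly6a* was at 42.1 against 42.2 CPM in the proximal and 18.6 against 19.3 in the distal library. *Pi16* (-0.13) was at 12.3 against 13.7 and 17.8 against 19.2 CPM there. Against cells matched on total UMIs 2 of the 15 were lower (*Ly6a* and *Cd55*) and 1 higher (*Fap*), against 3.5% and 1.59% of all genes. With epithelial clusters left out there, 10 were lower and 2 higher, against 6.12% and 3.85% of all genes. Of 16 interstitial matrix genes *Col6a1* and *Col6a3* were higher within clusters (0.26 and 0.37), against 0.802% of all genes. *Col1a1* and *Col1a2* were lower (-0.35 and -0.28), against 1.65% of all genes. Without the distal E16.5 library *Col1a2* (-0.24, adjusted p = 0.22) and *Col6a1* (0.33, adjusted p = 0.089) did not pass, nor did *Col6a1* without the E14.5 library (0.20, adjusted p = 0.053). The difference between collagen VI and collagen I genes was not tested.

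Of 10 genes named in the literature as HIC1 targets 2 were lower within clusters (5 with an unadjusted p under 0.05, 2 called with DESeq2 and 4 with limma-voom), against 1.65% of all genes tested. They were *Cdkn1a*, which encodes the cell cycle inhibitor p21, at 18.6, 87.9 and 65.5 CPM against 27.8, 130 and 83.8 (log2 fold change -0.54, SE 0.09, adjusted p = 0.0032), and *Fgfbp1*, which encodes an FGF-binding protein (-0.98, adjusted p = 0.00088). *Cdkn1a* kept its call in 13 of 16 alternatives, with log2 fold changes between -0.60 and -0.23. The call of *Fgfbp1* was lost in 4 of 16 alternatives, among them the fit without the distal E16.5 library (-0.78, adjusted p = 0.073). Without the mitotic-like clusters *Fgfbp1* was at 0.970 CPM against 0.979 at E14.5, 15.1 against 25.2 in the proximal and 28.2 against 62.0 in the distal library. On total UMIs with epithelial clusters left out, its log2 fold change was 0.06 (adjusted p = 0.88, edgeR). *Ackr3*, the gene of a chemokine receptor, was at 29.9, 18.9 and 16.8 CPM against 34.1, 27.2 and 21.9 within clusters (-0.43, adjusted p = 0.055). *Ccnd1*, *Sirt1* and *E2f1* had log2 fold changes between -0.20 and 0.08, and *Cdkn1c*, which encodes the inhibitor p57 and reached 6322 CPM, was higher only against cells matched on total UMIs (0.51, adjusted p = 0.015, and 0.087 without the distal E16.5 library; within clusters 0.09, adjusted p = 0.47). None of 8 corepressor genes passed (edgeR, unadjusted p under 0.05 in 1, and 0 with DESeq2 and limma-voom).

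Of 6 mitotic markers 0 were called within clusters (edgeR, unadjusted p under 0.05 in 0, and 0 with DESeq2 and limma-voom), and 0 on total UMIs (unadjusted p under 0.05 in 2, and 0 with DESeq2 and limma-voom). With the epithelial clusters left out of the latter, where 6.12% of all genes were lower, 5 of 6 were lower (median -0.49), among them *Mki67* (-0.51, adjusted p = 0.012). Within clusters *Mki67* was at 72.7, 99.7 and 157 CPM against 98.5, 75.2 and 172. Of 8 immediate early genes, which respond to cell dissociation, *Egr1* was higher within clusters (0.49, adjusted p = 0.0053), against 0.802% of all genes. Without the distal E16.5 library *Egr1* was at 0.43 (adjusted p = 0.13). *Fos* was at 204, 127 and 274 CPM against 157, 120 and 271 within clusters (0.11, adjusted p = 0.59). The part of dissociation in *Egr1*, itself a target of growth factor signalling, was not tested. The neighbours of *Hic1* on chromosome 11 had 0 of 6 calls within clusters (edgeR, unadjusted p under 0.05 in 1, and 0 with DESeq2 and limma-voom), and 0 of 6 on total UMIs (unadjusted p under 0.05 in 2, and 0 with DESeq2 and limma-voom). With the epithelial clusters left out of the latter, where 3.85% of all genes were higher, *Srr* (0.56, adjusted p = 0.024) and *Sgsm2* (0.66, adjusted p = 0.012) were higher.

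**Figure D5:**
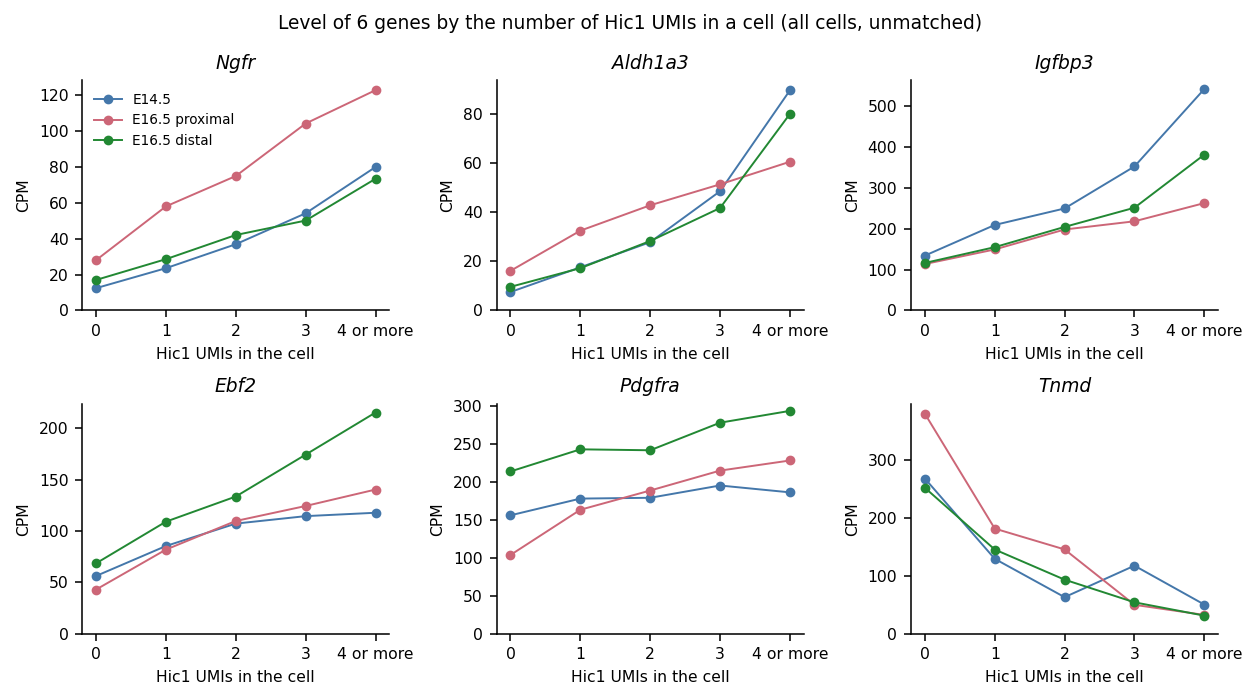
Level (CPM, vertical axis) of 6 genes in all cells of a library with 0, 1, 2, 3 and 4 or more *Hic1* UMIs (horizontal axis), 1 line for each of the 3 libraries, unmatched. *Ngfr*, *Aldh1a3* and *Igfbp3* climb at every step in all 3 libraries, and *Tnmd* falls except between 2 and 3 *Hic1* UMIs at E14.5 (63.4 and 118 CPM).

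The levels of *Aldh1a3* and *Ngfr* rose with each further *Hic1* UMI in all 3 libraries, below the limit of 3 as well as above it. Over all cells of a library, *Aldh1a3* went from 7.49 CPM in cells with no *Hic1* UMI through 17.6 and 27.8 with 1 and 2 to 48.5 with 3 and 89.6 with 4 or more at E14.5. The corresponding levels were 16.1, 32.5, 42.8, 51.4 and 60.6 CPM in the proximal and 9.60, 17.2, 28.3, 41.7 and 80.04 CPM in the distal library. *Ngfr* went from 12.4 to 79.9 CPM, from 28.0 to 123 and from 17.0 to 73.3 over the same range. *Tnmd* went down from 268 to 50.6 CPM, from 380 to 32.6 and from 252 to 31.4, although not at every step at E14.5 (63.4 CPM with 2 and 118 with 3 *Hic1* UMIs). Median total UMIs rose over the same steps, from 13760 to 21966.5 at E14.5, from 17289 to 29132 in the proximal and from 16212 to 23065 in the distal library. The levels are matched neither on total UMIs nor on cluster. Over the same range in the proximal library *Krt1* went from 1741 to 51.3 CPM and the cartilage gene *Col2a1* from 2514 to 368. The part of the mix of cell types in these levels was not tested. *Acta2* had no such order, with 69.9, 42.3, 85.7, 9.65 and 8.06 CPM at the same steps in the distal library.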

How the data were processed

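Single-cell libraries were made by the authors with 10x Genomics droplet kits, and processed with Cell Ranger against mm10 with added sequences, as the study's methods state. The version was 3.0.2 (6.0.1 for the distal E16.5 library) per the file headers, and the study's reporting summary names another one. The authors deposited whole UMI counts for each gene in each barcode, without normalization. From these counts, cells with at least 3000 UMIs and at most 10% mitochondrial UMIs were kept. The library is the sample, and it is the only one of its stage and segment, made from pooled embryos. *Hic1*-high cells were matched 1 to 1 with cells without a *Hic1* UMI of the same library on total UMIs, or on total UMIs and cluster (largest difference in total of a pair 19.0% and 68.5%). Clusters came from scanpy 1.11.5 (2000 variable genes without *Hic1* and transgenes, 50 components, 25 neighbours, Leiden resolution 1), and a cluster was named from at least 3 raised markers. Scrublet called 1 of 27937 cells a doublet and was not used, so doublets were not removed. Without the top 5% of doublet scores 206, 403 and 371 *Hic1*-high cells remained of 249, 440 and 399 at E14.5, proximal and distal E16.5. All *Hic1*-high cells had median doublet scores of 0.0707, 0.0446 and 0.0402, and cells matched on total UMIs had 0.0579, 0.0476 and 0.0466.

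UMIs were summed per library and class, giving 6 sums, and tested with edgeR 4.0.16 (R 4.3.3) by the quasi-likelihood test with library and class as terms, TMM scaling, filterByExpr and Benjamini-Hochberg adjustment over all genes tested at 0.05. CPM are UMIs of a sum scaled to its total. DESeq2 1.42.0 and limma 3.58.1 (voom) were alternatives, as were other limits on UMIs, mitochondrial share and *Hic1* UMIs, a second matched set, a finer clustering, and leaving out each library. On simulated counts with 100 genes changed 4-fold and 100 changed 2-fold, edgeR recovered 97 and 76 in the comparison matched on total UMIs and 98 and 91 in the comparison matched on cluster. It called 5 and 3 unchanged genes, and DESeq2 recovered 88 and 61, and 88 and 76. The simulation drew sums and not cells, so these rates do not cover genes whose UMIs lie in a few cells. Named genes were the 10 called genes per direction with the largest log2 fold change, the same sign in the 3 libraries and a mean of at least 20 CPM in the higher class. The rule left out *Hic1*, transgenes, haemoglobin, mitochondrial and sex-linked genes, the last applied as *Xist*, *Tsix* and Y-linked genes, so that the X-linked *Amot* and *Tnmd* are named; leaving out all X-linked genes would drop both. Members of the gene lists were named as well. Some genes are not reported here. The cells, gene lists and tests were chosen with earlier results of these data known, and the FGF feedback and Ebf lists after the values were seen. Gene positions are from GENCODE vM21 (GRCm38).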

Additional observations from a re-analysis of the deposited data

Results flagged for a closer look

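The earlier sorted libraries, which the comparisons do not use, also held cells with 3 or more *Hic1* UMIs: 17 at E11.5, 74 at E12.5 and 36 at E13.5, against 0 in either whole-limb library, where the exact 95% upper limit of the share is 0.0675% and 0.0649%. Against cells without a *Hic1* UMI matched on total UMIs, *Ngfr* had 23 and 1 UMIs at E11.5, 113 and 39 at E12.5 and 30 and 8 at E13.5, and *Igfbp3* had 25 and 11, 455 and 115, and 105 and 22. Of the 10 genes named as higher within clusters, those with more than 3 UMIs were higher in 3 of 6, 9 of 9 and 7 of 8 cases. These libraries were made with an earlier kit and hold fewer cells, and no test was made.

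The 4 transcripts *Pi16*, *Krt14*, *Sfn* and tdTomato moved in opposite directions at E14.5 and in both E16.5 libraries within clusters, a difference that was not tested. *Pi16* had a log2 difference of 0.84 at E14.5 and of -0.78 in each E16.5 library, *Krt14* of 0.44 against -1.15 and -0.54, *Sfn* of 0.59 against -0.65 and -0.50, and tdTomato of 0.0095 against -0.11 and -0.15. At E14.5 *Pi16*, *Krt14* and *Sfn* were all at 2.15 CPM or less.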

How the results depend on the processing

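The count of 666 genes past the threshold (matched on total UMIs) was 1443 with no filter on low counts, 1211 with all cells without a *Hic1* UMI, 341 with at least 4 *Hic1* UMIs, 1292 without epithelial clusters, and 811 to 1615 with 1 library left out. The count of 318 (matched on cluster) was 665 with no filter, 133 with DESeq2 (which gave an adjusted p for 7683 genes), 147 without mitotic-like clusters, and 228 to 635 with 1 library left out (228 without distal E16.5, 635 without E14.5). Without TMM scaling 50.5% of the calls within clusters were higher in place of 32.7%, with a median over all genes of 0.045. All 10 genes named as higher on total UMIs passed in every alternative run. Of those named within clusters, 8 of 10 higher genes (all but *Igfbp3* and *Gm26669*) and 4 of 10 lower genes passed with DESeq2, and the higher genes *Aldh1a3* (0.60 to 1.17), *Ngfr* (0.67 to 1.14) and *Spry4* (0.80 to 1.11) passed in all 16 alternatives. *Shisa2* lost its call with at least 4 *Hic1* UMIs and with the second matched set. Of the 10 lower genes 6 passed at Leiden resolution 2, 7 with the second matched set, 8 with at least 4 *Hic1* UMIs and 9 with limma-voom. Within clusters the second matched set used 313 of 399 distal *Hic1*-high cells, because 86 found no partner in their cluster. At least 2 *Hic1* UMIs used 949 of 1017 distal cells, with 68 left without a partner. The direction turned for *Krt1* within clusters without proximal E16.5 (0.065, leave-one-out range -1.05 to 0.065) and without epithelial clusters (0.021), and for *Rgs5* at Leiden resolution 2 (0.10). The cause was not tested. The share of *Hic1*-high cells was 0.0716%, 0.0450% and 0.0592% at 3000 UMIs per cell, and at E14.5 2.59% without the top 5% of doublet scores. The planned run without called doublets was not made, since 1 cell was called. No paired analysis was possible because the replicate numbers pair no samples across groups, each stage and segment being 1 library. The 2 classes of a library were already paired in every fit by the library term. With 1 library per stage and segment, stages and segments were not compared by a test.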
